A study of Mus musculus with 2 samples.

Results

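The genes described here are 9 parts of the route from interferon receptors to the nucleus, followed in single-cell RNA sequencing (scRNAseq) of mouse salivary glands. They are the receptor chains *Ifngr1* and *Ifnar1*, the kinase *Jak2*, the transcription factors *Stat2*, *Irf1*, *Irf8* and *Irf9*, and the feedback inhibitors *Socs1* and *Socs3*. They were chosen by symbol as known parts of this route, with earlier results of these data known. All 9 are among the 50768 genes listed in both libraries, of which 29254 had a count in the barcodes used. A list of 36 other genes of the pathway was followed beside them.

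The study compared 1 NOD/ShiltJ library (NOD below) with 1 CD1 library. Each came from the pooled submandibular and adjacent sublingual glands of female mice at 20 weeks of age, with no treatment. NOD/ShiltJ is an inbred strain in which lymphocytes infiltrate the salivary glands and which is used as a model of Sjögren's disease, and CD1 is an outbred stock that served as the control. Each pool held 3 or 4 mice, as the sources differ on this. Both suspensions were depleted of EpCAM-bearing and Ter119-bearing cells and cleared of dead ones, and both libraries have the same batch number. With 1 library per strain there is no replicate, so no difference was tested. The strain cannot be told apart from the pool or the library.

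Interferons bind receptors at the cell surface, and Janus kinases (JAKs) bound to the receptor tails then phosphorylate STAT proteins. Type I interferons use the receptor chain encoded by *Ifnar1*, after which STAT2 and IRF9 enter a complex that binds interferon-stimulated response elements (ISRE). Interferon gamma uses a receptor that holds the chain encoded by *Ifngr1*. JAK2 is among the kinases of this receptor, and STAT dimers then bind gamma-activated sites (GAS). IRF1 and IRF8 are interferon regulatory factors, the latter best known in macrophages, dendritic cells and B cells. SOCS1 and SOCS3 are induced by cytokines and inhibit receptors and kinases in turn. An interferon signature in glands and blood is a known feature of Sjögren's disease.

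The sequences before the start sites show which members carry these elements close to the gene. RefSeq promoters (build GRCm38.p6, 250 bases before to 50 bases after a start) were found for all 9 members, with 12 starts in all. This build differs from GRCm39, which the submitters name for the counts. The windows below are 50 bases long, run 5′ to 3′ on the strand of the gene and end before the start. The ISRE-type motif searched was GAAANNGAAA, or TTTCNNTTTC on the other strand, and the GAS-type motif was TTCNNNGAA, which reads the same on both strands. Capitals mark the bases of a match.
*Stat2*, ISRE-type, chr10:128270256-128270305, plus strand: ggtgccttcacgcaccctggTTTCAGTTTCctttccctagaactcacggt
*Socs1*, ISRE-type, chr16:10785587-10785636, minus strand: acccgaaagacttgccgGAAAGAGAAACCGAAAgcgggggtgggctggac
*Irf1*, GAS-type, chr11:53769903-53769952, plus strand: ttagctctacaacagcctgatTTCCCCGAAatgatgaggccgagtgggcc
*Irf8*, GAS-type, chr8:120736175-120736224, plus strand: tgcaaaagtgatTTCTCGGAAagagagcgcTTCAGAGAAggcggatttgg
*Socs3*, GAS-type, chr11:117969492-117969541, minus strand: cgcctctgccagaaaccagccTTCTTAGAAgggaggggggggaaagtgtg

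The match of *Stat2* began 222 bases before its start. In *Socs1*, 2 overlapping ISRE-type matches began at 83 and 77 bases. The GAS-type match of *Irf1* began at 90 bases, those of *Irf8* at 171 and 153, and that of *Socs3* at 154. *Ifnar1* had a GAS-type match that began 5 bases before its start and ran across it. ISRE-type letters were present in 2 of the 12 member promoters and in 3.44% of all 32851 promoters of this length, and GAS-type letters in 4 of the 12 and in 8.30%. Neither motif was found in the windows of *Ifngr1*, *Jak2* and *Irf9*. A match is a description of the letters and does not show binding.

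Expression was counted in unique molecular identifiers (UMIs), the tags that mark single captured RNA molecules. Barcodes with at least 500 UMIs and 300 genes were kept, 6500 in NOD and 7014 in CD1, with 43439635 and 49420810 UMIs and medians of 5719.5 and 6495 per barcode, and 18 barcode sequences occurred in both. A barcode took a lineage when it held at least 3 UMIs of at least 2 markers of a list and at least 2 times as many as of any other list. The lineages are named with "-like", since they rest on these markers only. Only 4 lineages held at least 20 barcodes in each library, and only these were compared. T-like barcodes numbered 1975 in NOD and 88 in CD1, natural killer (NK)-like barcodes 590 and 356, macrophage-like barcodes 732 and 2992, and endothelial-like barcodes 1067 and 2892. Although the labels call the cells enriched for stroma, 59 NOD and 18 CD1 barcodes were fibroblast-like and 13 and 14 were mural-like.

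A level is the summed UMIs of a gene per 1000000 UMIs of the lineage (CPM), and a ratio is NOD over CD1 on the log2 scale with an exact 95% interval. These intervals reflect counting error alone, not the differences between mice. A value was called when it was at least 2-fold in either direction, with an interval past 0, for a gene with at least 50 UMIs over both libraries in the lineage. All 9 members reached this count in all 4 lineages, which gives 36 values. *Socs3* in T-like cells did so through NOD alone, with 161 UMIs against 1. The same was true there of *Stat2* (682 against 18), *Irf8* (597 against 20) and *Irf9* (875 against 32). It was also true of *Socs3* in NK-like cells (68 against 29). The intervals of these values all lay above 0, and the T-like calls below are among them.

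The interferon receptor chains differed by less than 2-fold between the strains, in either direction, whereas most transcripts of the transcription factors and inhibitors were higher in NOD. Of the 24 values of transcription factors and inhibitors, 5 were called higher in NOD and 0 lower. Among the 5 are the 2 T-like calls, *Stat2* and *Socs3*, which reached 50 UMIs through NOD alone. Their intervals lay above 0 for 19 values, below 0 for 2 and held 0 for 3. Of the 8 values of the receptor chains, 0 were called, and the intervals lay above 0 for 1, below 0 for 2 and held 0 for 5. *Jak2* stood with the transcription factors, with 4 of 4 intervals above 0 and 1 call, though its NK-like ratio did not stay above 0 under a stricter lineage rule.

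**Figure D1:**
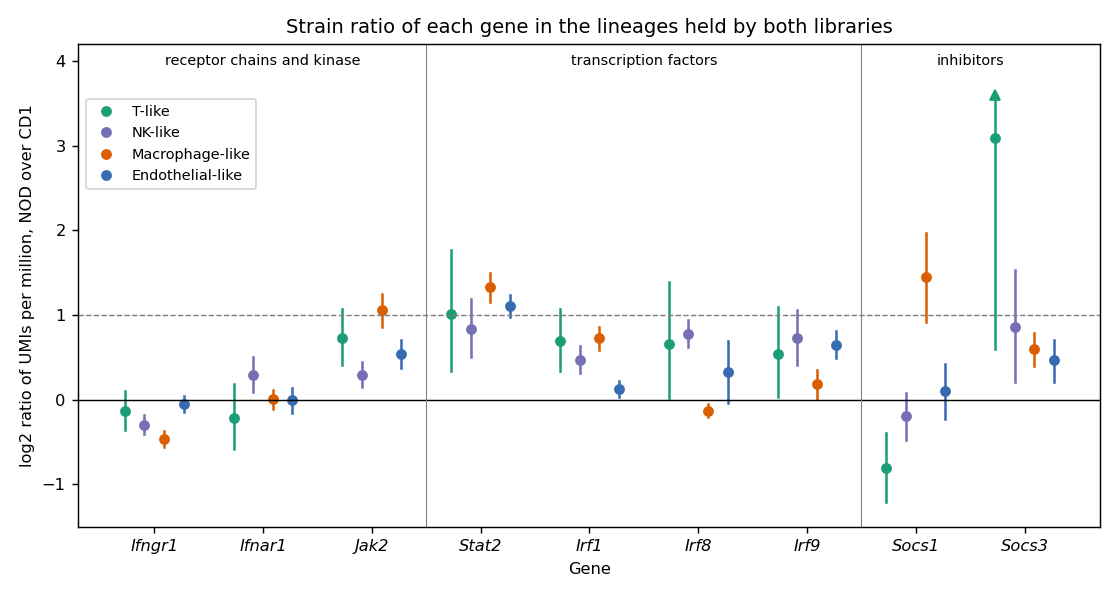
Each point is the log2 ratio of CPM, NOD over CD1, of 1 gene in 1 of the 4 lineages, and the bar is its 95% counting interval. The dashed line marks the 2-fold limit and the triangle a bar cut at 3.6. The points of *Ifngr1* and *Ifnar1* lie between -0.47 and 0.30, and those of *Stat2* between 0.84 and 1.33.

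These counts stand beside the share of all genes called in the same way. The members were chosen with earlier results of these data known, so the shares are a description and not an independent background. In T-like cells 2 of 9 members were called higher (5.70% of 11008 genes tested) and 0 lower (2.56%), and the interval lay above 0 for 6 (15.2% of genes) and below 0 for 1 (8.24%). Both T-like calls, *Stat2* and *Socs3*, reached 50 UMIs through NOD alone, so they cannot be read as an excess over that share. The same holds for *Irf8* and *Irf9* among the 6 intervals above 0. In NK-like cells 0 were called higher (4.00% of 10179 genes) and 0 lower (2.61%), with 7 intervals above 0 (21.9%) and 1 below (15.6%). In macrophage-like cells 3 were called higher (5.83% of 12581 genes) and 0 lower (3.77%), with 6 intervals above 0 (26.0%) and 2 below (14.8%). In endothelial-like cells 1 was called higher (5.33% of 12389 genes) and 0 lower (2.78%), with 5 intervals above 0 (29.5%) and 0 below (21.2%). The median log2 ratio of the 9 members was 0.66, 0.47, 0.59 and 0.33 in the T-like, NK-like, macrophage-like and endothelial-like cells. Over all genes tested it was 0.12, 0.04, 0.06 and 0.06. For the 6 transcription factors and inhibitors the medians were 0.68, 0.76, 0.66 and 0.40, and for the receptor chains with *Jak2* they were -0.13, 0.30, 0.01 and -0.01.

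*Ifngr1*, the ligand-binding chain of the interferon gamma receptor, was at 205 (NOD library) and 224 CPM (CD1 library) in T-like cells and at 196 and 203 in endothelial-like cells. Both intervals held 0. NK-like cells held less of it in NOD, 262 against 322 (log2 -0.30, interval -0.40 to -0.19). The macrophage-like cells had the largest difference, at 223 and 308 (log2 -0.47, interval -0.56 to -0.37). Under the 10 alternatives run, the ratio stayed below 0 in both lineages, from -0.77 to -0.19 in NK-like and from -0.73 to -0.44 in macrophage-like cells. At the -0.77 end, with 12 CD1 barcodes, the interval held 0.

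*Ifnar1*, a chain of the type I interferon receptor, was at 171 (NOD library) and 169.9 CPM (CD1 library) in macrophage-like cells (log2 0.01, interval -0.11 to 0.12). In endothelial-like cells it was at 76.2 and 76.7 (log2 -0.01, interval -0.16 to 0.14), and in T-like cells at 74.5 and 86.3 (log2 -0.21, interval -0.58 to 0.18). These intervals leave room for a 1.14-fold excess in NOD in T-like cells and a 1.10-fold excess in endothelial-like cells, so equality is not shown. Only in NK-like cells did the interval lie above 0, at 92.6 and 75.3 (log2 0.30, interval 0.09 to 0.51).

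*Jak2*, a kinase of the interferon gamma receptor and of several cytokine receptors, was at 71.0 (NOD library) and 34.1 CPM (CD1 library) in macrophage-like cells. This log2 ratio of 1.06 (0.86 to 1.25) lay just past the limit, and it lay under 2-fold in 6 of 10 alternatives, from 0.52 to 0.99. In T-like cells *Jak2* was at 189.5 and 114 (log2 0.73, interval 0.41 to 1.07). In endothelial-like cells it was at 72.1 and 49.7 (log2 0.54, interval 0.37 to 0.70), and in NK-like cells at 177 and 144 (log2 0.30, interval 0.15 to 0.45). The NK-like ratio was -0.02 under the stricter lineage rule and 1.05 without UMIs of other marker lists, the latter on 12 NOD and 4 CD1 UMIs.

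*Stat2*, the STAT protein of type I interferon signalling, was the member called in the most lineages. In macrophage-like cells it was at 103 CPM in NOD (456 UMIs, interval 93.9 to 113) and 41.2 in CD1 (844 UMIs), a 2.51-fold ratio (2.23 to 2.81). Endothelial-like cells had 139 (849 UMIs) and 64.5 (1264 UMIs), a 2.15-fold ratio (1.97 to 2.35). In T-like cells the values were 50.3 and 25.0, a 2.01-fold ratio (1.26 to 3.41) that rests on 18 UMIs in CD1. NK-like cells gave 44.5 and 24.9, a 1.79-fold ratio (1.42 to 2.28), whose log2 value of 0.84 became 0.42 (-0.01 to 0.85) under the stricter lineage rule and -0.53 on 4 UMIs in each library without UMIs of other marker lists. The ratios of macrophage-like and endothelial-like cells stayed past 2-fold in all 10 alternatives, with log2 values from 1.07 to 1.39 and from 1.05 to 1.61. The T-like ratio did not, and with the median gene of the lineage set to equal levels, which shifts T-like ratios by -0.11, it was 0.90.

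*Irf9*, the partner of STAT2 in binding ISRE, was at 79.3 (NOD library) and 50.6 CPM (CD1 library) in endothelial-like cells (log2 0.65, interval 0.49 to 0.81). NK-like cells had 46.9 and 28.2 (log2 0.73, interval 0.41 to 1.06), and T-like cells had 64.6 and 44.5 (log2 0.54, interval 0.03 to 1.09). In macrophage-like cells *Irf9* was at 81.0 and 71.3 (log2 0.18, interval 0.01 to 0.35), beside the 1.33 of *Stat2* in the same barcodes. *Irf9* was thus called in 0 of 4 lineages.

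*Irf1*, a factor that interferon gamma induces through GAS elements, was at 137 (NOD library) and 83.1 CPM (CD1 library) in macrophage-like cells (log2 0.72, interval 0.59 to 0.86). T-like cells had 148 and 91.8 (log2 0.69, interval 0.34 to 1.07), and NK-like cells had 173 and 125 (log2 0.47, interval 0.31 to 0.63). The strains were close in endothelial-like cells, at 186 and 170.1 (log2 0.13, interval 0.03 to 0.22). The ratio in endothelial-like cells was 0.60 below that in macrophage-like cells (interval of this difference 0.43 to 0.76).

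*Irf8*, a lineage factor of myeloid and B cells, was the one transcription factor with a lower level in NOD in a lineage. In macrophage-like cells it was at 388 (NOD library) and 425 CPM (CD1 library) (log2 -0.13, interval -0.20 to -0.05). NK-like cells had 197 and 115 (log2 0.78, interval 0.62 to 0.94), and T-like cells had 44.1 and 27.8 (log2 0.66, interval 0.02 to 1.38). In endothelial-like cells, where *Irf8* was scarce, it was at 14.4 and 11.4 and the interval held 0. With each barcode thinned to 500 UMIs, 14.6% of the NOD and 17.1% of the CD1 macrophage-like barcodes held an *Irf8* UMI, against 0.562% and 0.450% of the endothelial-like barcodes. Unthinned, these shares were 57.4% and 70.1% against 5.15% and 5.01%, at median depths of 3528.5 and 7047.5 UMIs in macrophage-like and 5135 and 6169.5 in endothelial-like barcodes. The T-like shares were 1.32% (interval 0.86 to 1.92) and 2.27% (0.28 to 7.97) thinned, the latter 2 of 88 barcodes. Unthinned they were 10.8% and 12.5%, at median depths of 6287 and 7937.5 UMIs. The order of these shares differed from that of the CPM, but so few CD1 barcodes do not fix it. The T-like ratio was also not stable, at -0.03 under a stricter lineage rule, 0.17 with lineages from clusters and -1.90 without UMIs of other marker lists, and its interval held 0 with doublets removed. The NK-like ratio was 0.15 (0.01 to 0.30) with lineages from clusters and -0.12 (-1.83 to 1.69) without UMIs of other lists, where 12 CD1 barcodes were left.

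*Socs1*, an inhibitor that blocks JAK kinases, went in opposite directions in T-like and macrophage-like cells. T-like cells held less of it in NOD, 45.2 CPM (613 UMIs) against 79.3 (57 UMIs), with a log2 ratio of -0.81 (-1.20 to -0.39). In macrophage-like cells it was scarce in both strains, at 11.3 CPM (50 UMIs) against 4.15 (85 UMIs), with a ratio of 1.45 (0.91 to 1.97) that was called. Both of these levels lay below those of the barcodes taken as empty droplets, at 33.5 in NOD and 16.9 in CD1. NK-like cells had 43.6 and 49.97 (log2 -0.20, interval -0.47 to 0.08) and endothelial-like cells 17.7 and 16.4 (log2 0.10, interval -0.22 to 0.42).

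*Socs3*, the inhibitor best known from signalling through gp130, was higher in NOD in all 4 lineages, with all intervals above 0. Macrophage-like cells had 68.1 against 45.1 CPM (log2 0.59, interval 0.40 to 0.78), and endothelial-like cells 31.9 and 23.1 (log2 0.46, interval 0.21 to 0.71). NK-like cells had 68 and 29 UMIs (log2 0.86, interval 0.21 to 1.54). In T-like cells the 161 NOD UMIs (11.9 CPM) stand against 1 CD1 UMI (1.39 CPM), a ratio of 8.54-fold with an interval from 1.51 to 339. With T-like cells taken from clusters, the log2 ratio was 0.58 (-0.67 to 2.23), so the size of this ratio is not fixed by these data. The T-like and NK-like levels of both strains lay below those of the empty droplets, at 22.7 in NOD and 33.2 in CD1. So did the CD1 endothelial-like level.

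The transcription factors and inhibitors were also set against the receptors within each lineage, as UMIs per 100 UMIs of *Ifngr1* and *Ifnar1* together. Because counts of different genes differ in scale, only the strains are compared in this measure. The shared denominator moves every log2 ratio of a lineage by the same amount, which was 0.15 in T-like, 0.16 in NK-like, 0.28 in macrophage-like and 0.04 in endothelial-like cells. Its intervals use a normal approximation to the counting error, as do those of differences between lineages. In macrophage-like cells *Stat2* gave 26.2 UMIs per 100 receptor UMIs in NOD, against 8.61 for CD1 (log2 1.61, interval 1.42 to 1.79). *Irf1* gave 34.9 and 17.4 (log2 1.00) and *Jak2* 18.0 and 7.15 (log2 1.34). In endothelial-like cells *Stat2* gave 51.1 and 23.1 (log2 1.15, interval 1.00 to 1.30), whereas *Irf1* gave 68.3 and 60.8 (log2 0.17). Of the 6 transcription factors and inhibitors, the interval lay above 0 for 5 in T-like cells (18.6% of all genes tested) and below 0 for 1 (5.20%). In NK-like cells it lay above 0 for 5 (34.8%) and below for 0 (7.64%), and in endothelial-like cells for 5 (32.5%) and 0 (17.6%). In macrophage-like cells all 6 lay above 0, as did 52.2% of all genes, and 0 below (5.25%). The interval below 0 was *Socs1* in T-like cells (16.2 and 25.6 per 100 receptor UMIs), and those that held 0 were *Socs1* in NK-like and endothelial-like cells.

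**Figure D2:**
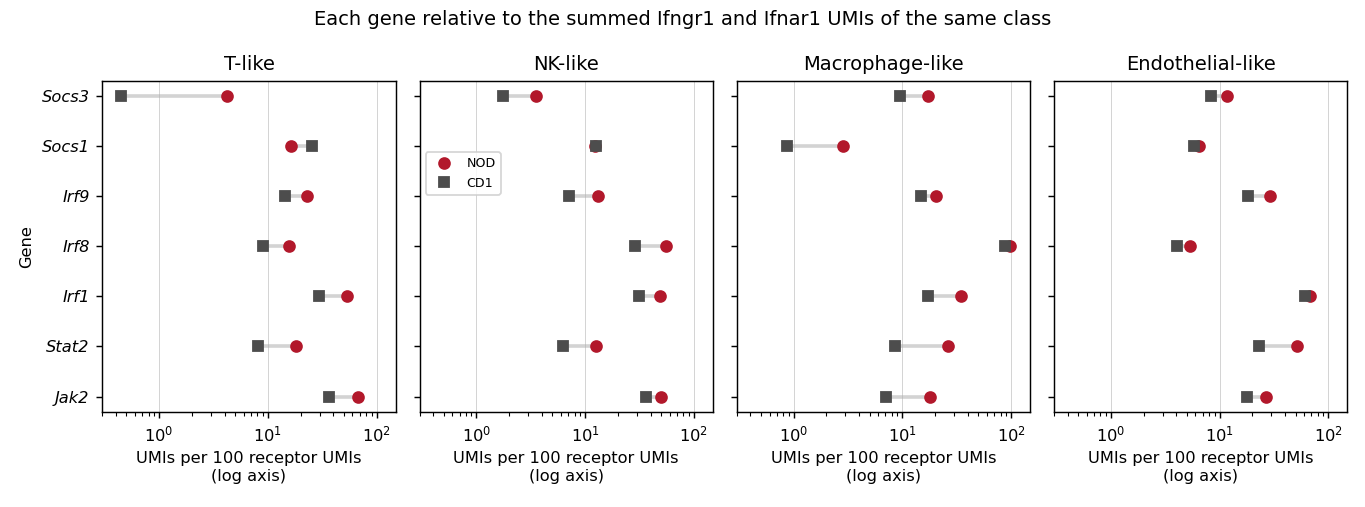
UMIs of each gene per 100 UMIs of *Ifngr1* and *Ifnar1* in the same lineage (log axis), for NOD (circles) and CD1 (squares). The NOD circle lies to the right of the CD1 square in all but *Socs1* in T-like and NK-like cells.

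Markers of other lineages differed between the strains within the lineages compared. In macrophage-like cells the 7 T markers summed to 115 CPM in NOD and 8.39 in CD1, the 6 NK markers to 111 and 35.2, and the 7 B markers to 42.1 and 5.17. All 20 of these markers were higher in NOD, and *Pax5* and *Fcmr* were among the B markers at 0 in CD1. In endothelial-like cells the T markers summed to 94.7 and 4.24, the NK markers to 38.6 and 18.3 and the B markers to 16.2 and 0.919, again with all 20 higher in NOD. Summed endothelial markers were lower in NOD in macrophage-like cells, at 49.996 and 107 with 1 of 8 higher, and macrophage markers were lower in endothelial-like cells, at 66.7 and 114 in endothelial-like cells. In T-like cells the B markers stood at 24.6 and 2.78 but the NK markers at 210.1 and 356, with 3 of 6 higher in NOD, and in NK-like cells the T markers at 719 and 256. The part of these UMIs in the ratios was not tested beyond leaving out the barcodes that held them.

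A pair of further settings, chosen after these values were seen, left out barcodes with such UMIs. Macrophage-like and endothelial-like barcodes without any T, NK or B marker UMI numbered 468 and 738 in NOD and 2631 and 2732 in CD1. In these, *Stat2* had ratios of 1.27 (1.06 to 1.48) and 1.12 (0.97 to 1.26), close to the ratios above. *Socs1* in macrophage-like cells stayed at 1.44 (0.76 to 2.07), while *Jak2* went to 0.66 (0.37 to 0.94). Of the 5 calls among transcription factors and inhibitors, 3 were left under this setting, and of the 1 among receptors and kinase, 0. The share of all genes called was not computed under either of these settings. Without a UMI of any other marker list, 2 and 0 were left, with *Stat2* at 1.07 (0.53 to 1.58) in 189 NOD and 1184 CD1 macrophage-like barcodes. That strict setting left 9 CD1 T-like and 12 CD1 NK-like barcodes, fewer than the 20 asked for above, and the *Socs1* value of macrophage-like cells then rested on 1 NOD UMI and 20 CD1 UMIs.

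**Figure D3:**
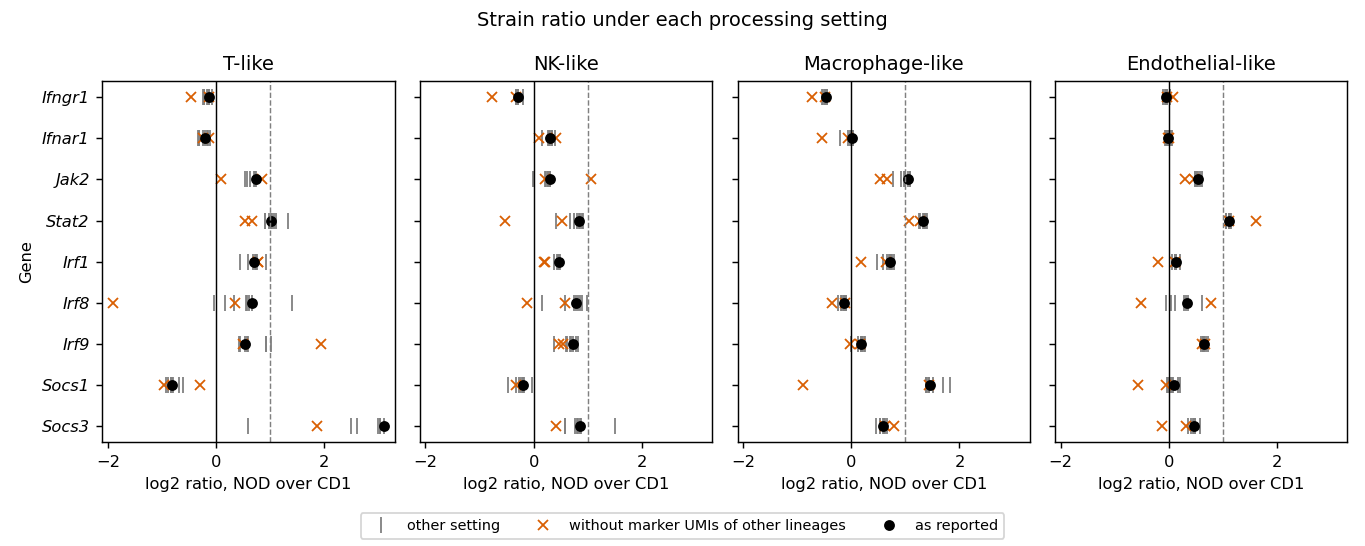
Log2 ratio of each gene, NOD over CD1, in the 4 lineages as reported (black points), under the other settings (grey bars) and without barcodes that held marker UMIs of other lineages (orange crosses). *Stat2* stays right of the dashed 2-fold line in macrophage-like and endothelial-like cells, and *Jak2* in macrophage-like cells falls on both sides of it.

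The order of levels was taken, here and below, over the classes with at least 20 barcodes in the library. Among these in CD1, *Ifngr1* was highest in NK-like (322 CPM) and macrophage-like cells (308), which did not differ beyond counting error. T-like (224) and endothelial-like cells (203) followed and did not differ either. The 18 CD1 fibroblast-like barcodes, too few for this order, held 367 (55 UMIs, interval 276 to 477). Among the 8 NOD classes with at least 20 barcodes, fibroblast-like cells had the most *Ifngr1* (359.9, interval 313 to 411) and B-like (68.3) and plasma-like cells (81.0) the least, the last a pair that did not differ beyond counting error. Over the same classes, *Ifnar1* was highest in macrophage-like cells of both strains, and the next in order was dendritic-like in NOD (115) and T-like in CD1 (86.3).

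*Irf8* had the widest range. In NOD it ran from 1131 CPM in dendritic-like cells (interval 1045 to 1222) over 388 in macrophage-like, 287 in B-like and 197 in NK-like cells, each step beyond counting error, down to 14.4 in endothelial-like cells. The 41 NOD dendritic-like barcodes held 14 with cDC1 markers, 7 with cDC2 markers and 12 with markers of migratory cells. *Irf8* was at 1778 in the first, 1279 in the second and 239 in the third. The same dendritic-like cells had the highest *Jak2* of the NOD classes (557, interval 497 to 622), with 907 in migratory, 428 in cDC1 and 336 in cDC2 barcodes. The intervals of the last pair overlapped (352 to 516 and 236 to 463). CD1 held only 4 dendritic-like barcodes and is not compared.

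*Socs1* and *Socs3* lay in different lineages among the classes with at least 20 barcodes. *Socs1* was highest in T-like and NK-like cells of both strains (45.2 and 43.6 CPM in NOD, 79.3 and 49.97 in CD1), though NOD NK-like and fibroblast-like cells (30.3) did not differ beyond counting error. It was lowest in macrophage-like cells of both strains, where the next class up (B-like in NOD, epithelial-like in CD1) did not differ beyond counting error either. *Socs3* was highest in macrophage-like cells of both strains (68.1 and 45.1), with NOD fibroblast-like cells (57.2) not different beyond counting error, and stood at 3.55 in dendritic-like cells (2 UMIs). *Stat2* was highest in NOD in fibroblast-like cells (197, interval 163 to 236), followed by endothelial-like (139) and dendritic-like cells (131), which did not differ beyond counting error. Of the CD1 classes with at least 20 barcodes, endothelial-like cells had the most *Stat2* (64.5). Smaller CD1 classes lay higher on few UMIs, dendritic-like at 93.2 (8 UMIs), fibroblast-like at 80.0 (12 UMIs) and B-like at 65.3 (3 UMIs).

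**Figure D4:**
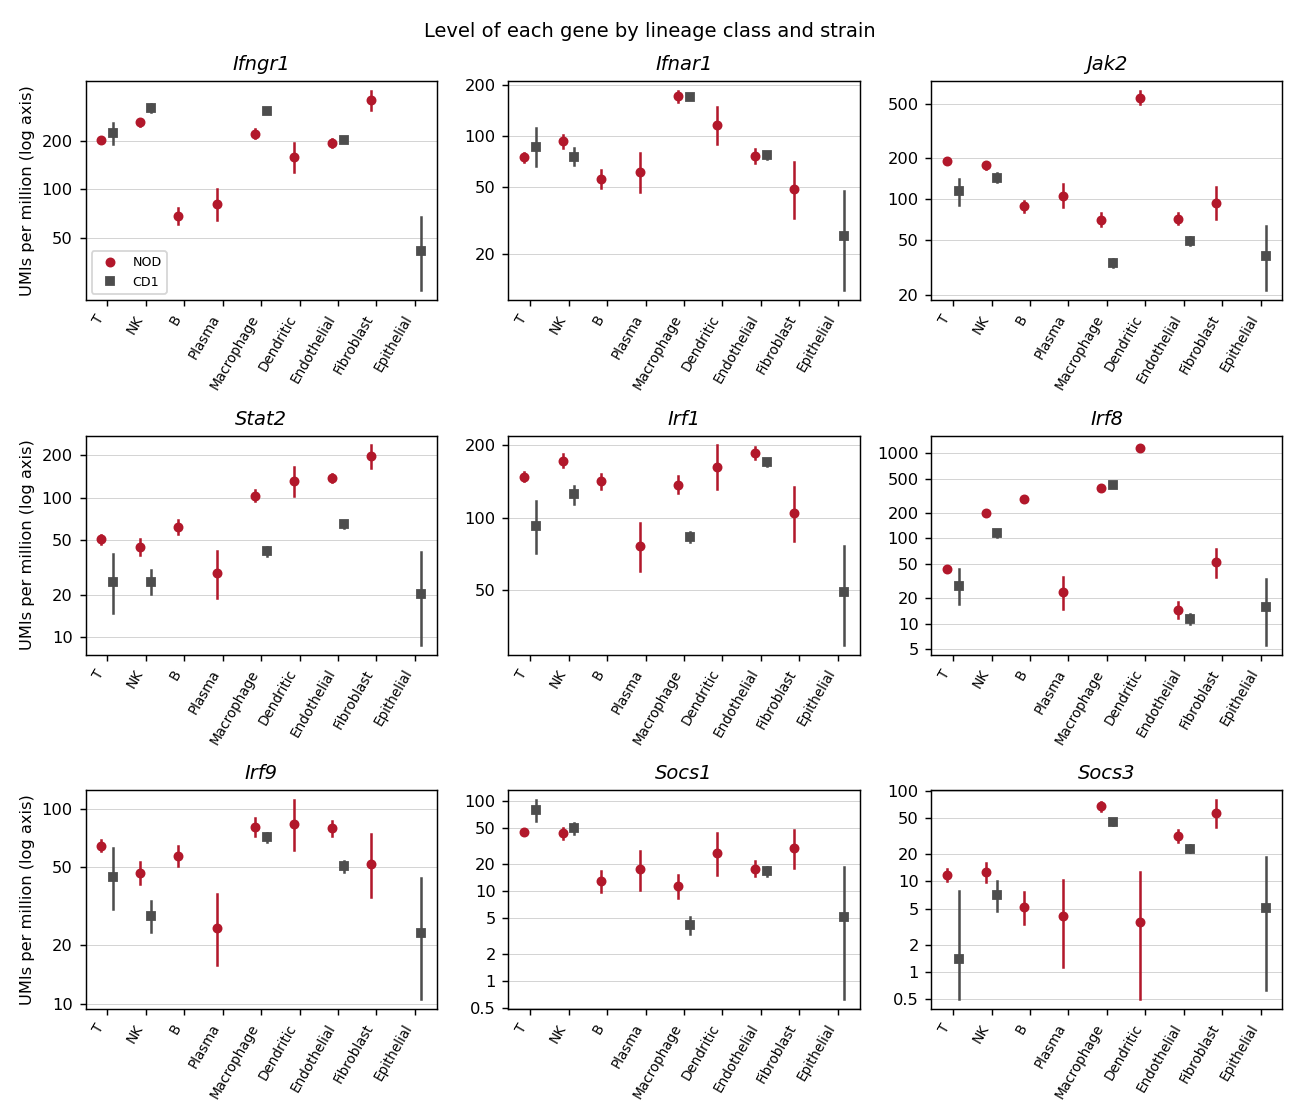
Level of each gene (CPM, log axis) in each lineage class with at least 20 barcodes, for NOD (red circles) and CD1 (grey squares), with exact 95% counting intervals drawn down to 0.5. *Irf8* and *Jak2* peak in NOD dendritic-like cells, at 1131 and 557.

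Within lineages, the ratios of *Stat2* and *Irf9* were found in the main endothelial division. In capillary-like barcodes (861 in NOD and 2360 in CD1), *Stat2* was at 142 and 65.4 CPM (log2 1.12, interval 0.98 to 1.25) and *Irf9* at 80.7 and 50.2 (log2 0.68, interval 0.51 to 0.85). In arterial-like barcodes (49 and 107), *Stat2* was at 88.1 and 30.4 (log2 1.53, interval 0.58 to 2.52), and *Irf9* at 51.4 and 60.8 with an interval that held 0. *Irf1* in capillary-like barcodes was at 190.4 and 176 (log2 0.12, interval 0.01 to 0.22).

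The lower *Socs1* of NOD T-like cells was present in both main T divisions. T-like barcodes that fell in neither division are not part of the values given here. Barcodes with *Cd4* had 48.1 against 99.5 CPM (log2 -1.05, interval -1.61 to -0.43), and those with *Cd8a* or *Cd8b1* had 42.7 and 98.9 (log2 -1.21, interval -1.86 to -0.50). These rest on 963 and 506 NOD barcodes against 35 and 22 CD1 barcodes, with 27 and 22 CD1 UMIs. *Irf8* in the *Cd4* barcodes was at 53.3 and 51.6 (log2 0.05, interval -0.72 to 0.93). For *Stat2* both T divisions gave intervals that held 0, with 7 CD1 UMIs in each.

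Of the 36 other genes of the pathway, 133 values reached 50 UMIs in the 4 lineages, and 16 were called higher in NOD and 2 lower, or 4 of 34, 3 of 32, 6 of 34 and 3 of 33 higher in T-like, NK-like, macrophage-like and endothelial-like cells. The shares of all genes called were 5.70%, 4.00%, 5.83% and 5.33% higher and 2.56%, 2.61%, 3.77% and 2.78% lower in the same order. All 4 T-like calls (*Ifng*, *Il6ra*, *Il6st* and *Irf7*) reached 50 UMIs through NOD alone, as did *Il6st* in NK-like cells. These calls cannot be read as an excess over the shares. By role, 5 of 25 values of receptor chains were called higher, 6 of 42 of transcription factors, 4 of 52 of inhibitors, 1 of 2 of ligands and 0 of 12 of kinases, and both lower calls were inhibitors. The partner chains of the members' receptors were not called in any lineage where they reached 50 UMIs. *Ifnar2* was at 324 (NOD library) and 415 CPM (CD1 library) in macrophage-like cells (log2 -0.36), and NK-like cells held 152 and 152 (log2 0.00). *Ifngr2* was at 215 and 246 in macrophage-like cells (log2 -0.19) and at 49.1 and 68.1 in endothelial-like cells (log2 -0.47).

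The receptor chains that were called belong to other cytokines. *Il6st*, which encodes gp130, was at 63.1 and 20.9 CPM in T-like cells (log2 1.60, interval 0.87 to 2.44, on 15 CD1 UMIs). NK-like cells held 17.5 and 4.34 (94 and 18 UMIs, log2 2.01, interval 1.27 to 2.83). That NK-like value was 0.74 (0.27 to 1.23) with lineages from clusters and 1.34 on 46 UMIs under the stricter lineage rule. It was called in neither. *Il6ra*, the partner of gp130 for interleukin-6, was at 87.6 and 40.4 in T-like cells, a log2 ratio of 1.12 on 29 CD1 UMIs. NK-like cells held 8.57 and 3.38 (log2 1.34, interval 0.45 to 2.32). Neither *Il6ra* value was stable. The T-like value was 0.34 (-0.09 to 0.81) with lineages from clusters and 0.68 (0.14 to 1.28) under the stricter lineage rule. It was called in neither. The NK-like value was -0.98 (-1.70 to -0.27) with lineages from clusters and -0.85 on 12 UMIs under the stricter lineage rule. NOD NK-like barcodes held more T markers. *Il2rg*, the common gamma chain, was called in macrophage-like cells (221 and 459 UMIs, log2 1.16), which also held more T and NK markers in NOD.

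*Ifng*, which encodes interferon gamma, was at 111 (NOD library) and 33.4 CPM (CD1 library) in T-like cells (log2 1.73, interval 1.15 to 2.38, on 24 CD1 UMIs). NK-like cells held 104 and 53.8 (log2 0.95, interval 0.72 to 1.18). *Ifnb1* had 0 UMIs in the NOD cells of the 4 lineages and 5 in CD1 macrophage-like cells. *Irf7*, a factor induced by type I interferon, was at 66.5 and 24.6 in macrophage-like cells (log2 1.43, interval 1.22 to 1.64) and at 34.6 and 6.96 in T-like cells (log2 2.31, on 5 CD1 UMIs). In endothelial-like and NK-like cells it was at 65.4 and 34.7 (log2 0.92) and at 38.9 and 19.6 (log2 0.99). *Stat4*, a STAT protein of T and NK cells, was called in macrophage-like (35.5 and 4.39, log2 3.02) and endothelial-like cells (21.6 and 4.64, log2 2.22). Its level in T-like cells was 450.4 and 409 (log2 0.14, interval -0.03 to 0.31). In barcodes without lymphocyte marker UMIs, *Stat4* fell under the minimum of 50 UMIs, with 37 in macrophage-like cells (log2 3.36, interval 2.35 to 4.41) and 34 in endothelial-like cells (log2 1.31, interval 0.16 to 2.39), so neither was called. *Il2rg* in macrophage-like cells was at 0.90 (0.54 to 1.24) there and was not called, nor was it with doublets removed (0.92).

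Among the other inhibitors, *Cish* was lower in NOD T-like cells, as *Socs1* was, at 81.2 CPM against 184 (log2 -1.18, interval -1.44 to -0.91). *Cish*, a SOCS family gene induced through STAT5, was higher in NOD macrophage-like cells, at 6.33 and 1.41 (28 and 29 UMIs, log2 2.16, interval 1.36 to 2.96), barcodes that also held more T markers. Without lymphocyte marker UMIs 26 UMIs were left, under the minimum for a call (log2 2.58, interval 1.34 to 3.80). *Socs2*, another gene of the family, was lower in NOD NK-like cells, at 21.4 against 92.2 (log2 -2.11, interval -2.42 to -1.80). Of the kinases, *Jak1* was at 599 and 499.6 in T-like and at 178 and 140.4 in macrophage-like cells (log2 0.26 and 0.34), and *Tyk2* at 39.2 and 22.3 and at 34.8 and 33.3 (log2 0.82 and 0.07). *Stat3* had log2 ratios from 0.20 in endothelial-like to 0.56 in macrophage-like cells.

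The genes whose levels most resembled those of the members were sought over 13 classes of lineage and strain, among 10958 genes, by the correlation of log2(CPM + 10). The classes share libraries, so this is a description. For *Stat2* the closest were *Irgm1* (r = 0.91) and *Parp9* (r = 0.91), both known as interferon-induced genes, followed by *Zfand2a* (r = 0.90). *Irf8* was closest to *Gm19708* (r = 0.94), *Trit1* (r = 0.93) and *Irf5* (r = 0.93). *Socs1* was closest to *H2-T10* (r = 0.94), *Ncbp3* (r = 0.93) and *Atp10a* (r = 0.92), and *Socs3* to *Acp2*, *Abcc5* (both r = 0.94) and *Plau* (r = 0.93). *Irf1* was closest to *Tut7* (r = 0.93), *Irf9* to *Tor1aip1* (r = 0.91), *Jak2* to *Ddhd1* (r = 0.98), *Ifngr1* to *Tbc1d13* (r = 0.89) and *Ifnar1* to *Slc25a45* (r = 0.95). Among the members themselves, *Stat2* and *Irf9* had the highest correlation (r = 0.72) and *Jak2* and *Socs3* the lowest (r = -0.44).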

How the data were processed

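Salivary gland cells of 1 NOD/ShiltJ and 1 CD1 pool were measured by scRNAseq. The values the authors deposited are raw UMI counts per gene and barcode, with no cell filter. The submitters' processing notes name Cell Ranger 8.0.0, Seurat 5.0.1, R 4.3.1 and the build GRCm39. The libraries held 52790319 (NOD) and 56483149 (CD1) UMIs. The kept barcodes and lineages are described above. UMIs were summed per lineage, with exact Poisson intervals for levels and conditional binomial intervals for ratios (95%). Each strain has a single library, so nothing was tested and barcodes were not treated as replicates. Intervals per 100 receptor UMIs and between lineages used a normal approximation.

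Doublets were kept in the reported values. As an alternative, likely doublets by Scrublet score (scanpy 1.11.5) were removed, 338 in NOD and 394 in CD1. Others used stricter barcode minima, a mitochondrial limit (10%), another lineage rule, clusters, another scaling, the weight of each barcode, the free RNA (10%, from barcodes with 10 to 100 UMIs), the gene minimum and the fold. The members, the gene lists and the rules were chosen with earlier results of these data known. The text names the members, other pathway genes that were called and up to 3 more per role, and the genes closest to each member. Some genes of the pathway list are not reported singly here. Intervals were run on simulated counts drawn from the same Poisson model that they assume. That run held no variation between mice or pools, so it cannot show how well the intervals hold for these data. Python 3.11.15, numpy 2.4.6, scipy 1.17.1 and matplotlib 3.10.9 were used.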

Additional observations from a re-analysis of the deposited data

Results flagged for a closer look

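For *Irf8* and *Socs1* the strains differed in opposite directions in 2 lineages, with both intervals past 0. The log2 ratio of *Irf8* (NOD over CD1) was 0.79 higher in T-like than in macrophage-like cells (0.66 against -0.13) and 0.91 higher in NK-like than in macrophage-like cells (0.78 against -0.13). With each lineage from the stricter marker rule, the T-like value of *Irf8* was -0.03 and the NK-like value 0.99, and with lineages from clusters they were 0.17 and 0.15. The log2 ratio of *Socs1* was -2.26 in T-like minus macrophage-like cells (-0.81 against 1.45). With 1 library per strain, these differences were not tested.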

How the results depend on the processing

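Each ratio was recomputed under up to 10 alternatives, 2 of them (the settings without marker UMIs of other lineages) chosen after seeing the data. Of the 36 member ratios, 23 kept their sign in all of them. The 5 calls among transcription factors and inhibitors became 3 with lineages from clusters, 3 without lymphocyte marker UMIs in macrophage-like and endothelial-like barcodes and the reverse, 2 without UMIs of any other list and 14 at a limit of 1.5-fold. The 1 call among receptors and kinase, *Jak2* in macrophage-like cells, became 0 with doublets removed, with the stricter lineage rule, with median-of-ratios scaling, with equal weight per barcode and under both later settings, and 2 at 1.5-fold. The 16 higher calls of other pathway genes became 4 without UMIs of any other list and 28 at 1.5-fold. All these counts are of higher calls only. The share of all genes called was not computed under these settings, so the counts cannot show an excess. Among the lower values, *Socs1* in T-like cells (log2 -0.81, interval -1.20 to -0.39) passed the 1.5-fold limit. *Irf8* in T-like cells was at -1.90 without UMIs of any other list, on 64 NOD and 8 CD1 UMIs. Without UMIs of any other list, *Socs1* in macrophage-like cells reversed to -0.89 (interval -6.27 to 1.75), on fewer barcodes. The setting without UMIs of any other list gave 33 of the 36 values and the free RNA setting 34. The causes were not tested. The 88 CD1 T-like barcodes limit every T-like ratio. No paired analysis was possible because each strain has 1 library and the ratios come from no test.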

Other observations

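Barcodes that met no lineage rule, 1115 in NOD and 555 in CD1, held the members at 188 CPM in NOD and 88.5 in CD1 for *Jak2*, 203 and 150.0 for *Irf8*, 58.7 and 43.9 for *Stat2*, and 164 and 164.5 for *Ifngr1*. In barcodes with 10 to 100 UMIs, taken as empty droplets, *Jak2* was at 92.7 and 51.6, *Stat2* at 38.2 and 33.2, *Irf8* at 144.5 and 166, *Socs1* at 33.5 and 16.9, and *Socs3* at 22.7 and 33.2.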
